A study of Mus musculus with 2 samples.

Results

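The genes described here carry sterols and phospholipids out of liver cells or handle HDL, the lipoprotein that returns cholesterol to the liver. They are 10 genes chosen by symbol: Abcg5, Abcg8, Abca1, Abcg1, Abcb4, Scarb1, Lcat, Mylip, Soat2 and Npc1. They were matched through the RefSeq transcript that each array probe names, which gave 12 probes, and all 10 genes were well above background on both arrays. Of all genes, 14515 were well above background on both arrays and 16346 on at least 1 array, and the latter are the genes counted as measured. RNA came from the livers of male mice, with the livers of 3 mice pooled in each group and 1 array per group. The fasting group had no food overnight, for 16 h by one label and for 14 to 16 h by another. The feeding group was fed after a fast by one label and had free access to food by another. Neither group carried a transgene or received a drug according to the labels, which give neither age nor strain. The study's methods name male mice of the C57BL/6 J strain or background without saying which animals were used for the arrays. With 1 array per group there is no spread between mice and no test, and in a pooled liver sample fewer cells of a type and less RNA per cell cannot be told apart.

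Cholesterol leaves the liver into bile and, on lipoproteins, into blood. At the canalicular membrane, which faces the bile, ABCG5 and ABCG8 form a heterodimer that secretes sterols, and ABCB4 moves phosphatidylcholine to the outer leaflet, where bile acids take it up. On the blood side, ABCA1 loads phospholipid and cholesterol onto apolipoprotein A-I to start an HDL particle, LCAT in plasma esterifies the cholesterol of that particle, and SR-BI, the product of Scarb1, takes HDL cholesterol esters back into the hepatocyte. Several of these genes are known targets of LXR, the nuclear receptor for oxidised sterols.

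The promoter region of Abcg5 and Abcg8 is shown first because these genes lie head to head and encode partners of the same transporter. In the RefSeq promoter table of GRCm38.p6 the start of Abcg5 on the minus strand and the nearest start of Abcg8 on the plus strand are 110 bases apart, so 109 bases lie between them. The second window is the 250 bases before the start of Abca1, the LXR target whose signal was higher upon feeding. Coordinates refer to GRCm38.p6, while the array was designed on an older build.
Abcg5-Abcg8, chr17:84683012-84683120, plus strand: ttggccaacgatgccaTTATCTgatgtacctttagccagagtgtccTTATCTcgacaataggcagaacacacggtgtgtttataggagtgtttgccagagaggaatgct
Abca1, chr4:53159896-53160145, minus strand: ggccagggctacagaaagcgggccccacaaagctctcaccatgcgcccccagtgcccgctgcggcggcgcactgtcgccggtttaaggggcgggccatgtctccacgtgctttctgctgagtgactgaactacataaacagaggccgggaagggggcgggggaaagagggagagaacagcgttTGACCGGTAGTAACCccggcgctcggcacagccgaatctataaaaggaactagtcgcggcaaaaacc

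Capitals in the Abcg5-Abcg8 window mark the GATA box AGATAA, searched on both strands and found here on the minus strand. It occurs 2 times, 17 and 47 bases from the start of Abcg5. Of 32851 promoters in the table, 3.98% hold this box in the 109 bases before the start, and 0.186% hold it at least 2 times. Capitals in the Abca1 window mark a match to the direct repeat to which LXR with its partner RXR is known to bind, searched on both strands as 2 copies of GGTNA with 5 bases between them, and 0.621% of promoters hold a match in the 250 bases before the start. This repeat was not matched in the 250 bases before any start of Abcg5, Abcg8, Abcb4, Lcat or Mylip in the table. The search gave no result for Abcg1, Scarb1, Soat2 or Npc1, so Abca1 cannot be called the only member with this repeat. The motifs E box (CACGTG) and sterol regulatory element (TCACNCCAC) were searched as well. The Abca1 window holds 1 E box, left in small letters, and 6.02% of promoters hold one in the 250 bases. No other match to the motifs searched was found in either window. These matches describe letters in short windows, and no binding was measured.

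Upon feeding, Abcg8 was the 1 gene of the 10 past the 2-fold threshold of the study's methods, and it was lower. No gene of the 10 was 2-fold higher. Among all 16346 genes 7.91% were past 2-fold, 3.29% higher and 4.62% lower, so 1 gene in 10 is near that background. At 1.5-fold 1 gene was higher (Abca1) and 2 were lower (Abcg8 and Abcb4), against 21.1% of all genes, 10.5% higher and 10.6% lower. The log2 difference, feeding minus fasting, was below 0 for 8 of the 10 genes and above 0 for 2, with a median of -0.29. Of all genes 45.2% were below 0 (7383, against 7802 above), the rest were at exactly 0, and the median was 0.0. With scaling by array medians instead, the 10 genes had a median of -0.09 and all genes one of 0.09, and Scarb1 (0.01) and Lcat (0.05) were above 0. The study also called genes at a 2-fold change after quantile normalization, and no p-value is given. Its methods name no detection filter, bound or choice of probe per gene, so its counts may not be comparable with these.

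**Figure D1:**
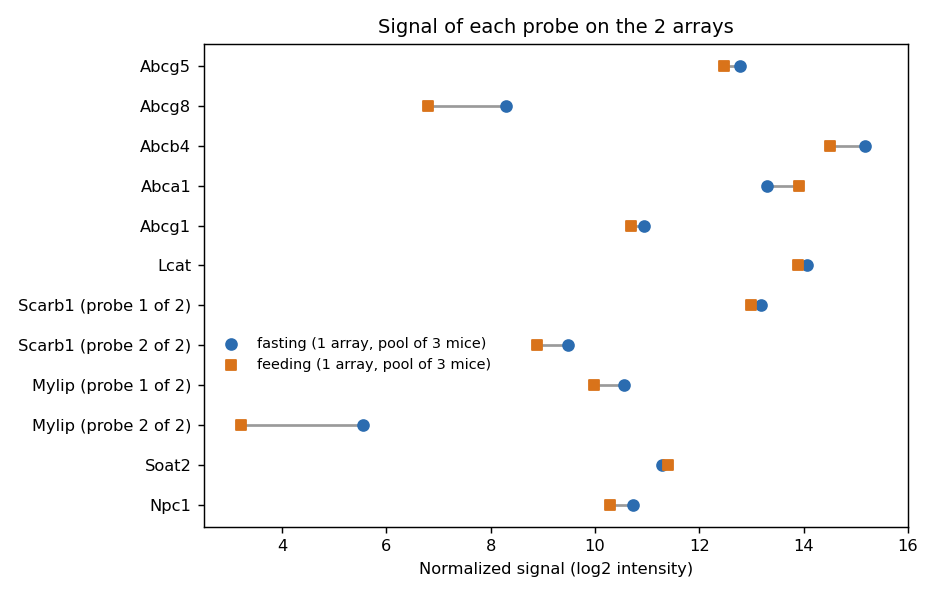
Quantile normalized signal (log2 intensity, x axis) of the 12 probes on the fasting array (blue circles) and the feeding array (orange squares), each array a pool of 3 mice. The squares lie left of the circles for every probe except those of Abca1 and Soat2, and the widest separations are those of Abcg8 and of the dim second probe of Mylip.

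Abcg5, Abcg8 and Abcb4, the canalicular transporters among the 10 genes, each had a lower signal upon feeding. Abcg8 (gene ID 67470, probe for transcript NM_026180) had a processed signal, which is an intensity after background subtraction, of 330.8 upon fasting and 103.4 upon feeding. After quantile normalization these were 312.0 and 110.8, a log2 difference of -1.49 or 2.82-fold lower. The spread of probes spotted 10 times, at a similar signal, gave an SD of 0.18 for such a difference, and the scanner software's own error gave 0.21. Both describe the measurement on the array and not the variation between mice. For the brightest probe of each other gene the scanner error was 0.2, larger than its SD of replicate spots (0.08 to 0.11). Multiples of an SD given below use replicate spots only. Of all genes, 357 (2.18%) were lower by more than Abcg8. Of the 1305 genes within 0.5 log2 units of its signal, 9.66% were past 2-fold.

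The size of the Abcg8 difference depended on the background correction. The local background around its spot was 46.2 upon fasting and 25.5 upon feeding, where the medians of the arrays were 30.0 and 22.4. With no background subtracted the log2 difference was -1.26, and with the normexp correction, a model of signal plus background, it was -0.93, which is not past 2-fold. The part of the uneven local background in the Abcg8 difference was not tested beyond these corrections.

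Abcg5 (gene ID 27409, transcript NM_031884), the partner of Abcg8, had processed signals of 7105 upon fasting and 5588 upon feeding. Its log2 difference was -0.31, or 1.24-fold lower, with an SD from replicate spots of 0.08. The difference of Abcg8 thus exceeded that of Abcg5 by -1.18 on the log2 scale, against an SD of 0.20 for this gap from replicate spots. The gap was -0.97 with no background subtracted and -0.65 with the normexp correction, and Abcg8 was lower than Abcg5 in its difference under every correction and scaling tried. Each gene had a single probe spotted 1 time, and the table lists a further start of Abcg8 inside the Abcg5 gene. Which Abcg8 transcripts contributed to the signal of its probe was not tested.

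The same gap was computed for all pairs of genes that start within 1000 bases of each other on opposite strands and point away from each other. Of 705 such pairs with both genes measured, the median gap was 0.38 on the log2 scale, and 45 pairs (6.38%) had a gap at least as large as that of Abcg5 and Abcg8, which are counted among them. In 67 pairs (9.50%) 1 gene was past 2-fold and the other was not, as for Abcg5 and Abcg8. In 1 pair both genes were past 2-fold in the same direction. These shares are for the reported setting and were not recomputed with the other corrections, and the pairs were not matched for signal.

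**Figure D2:**
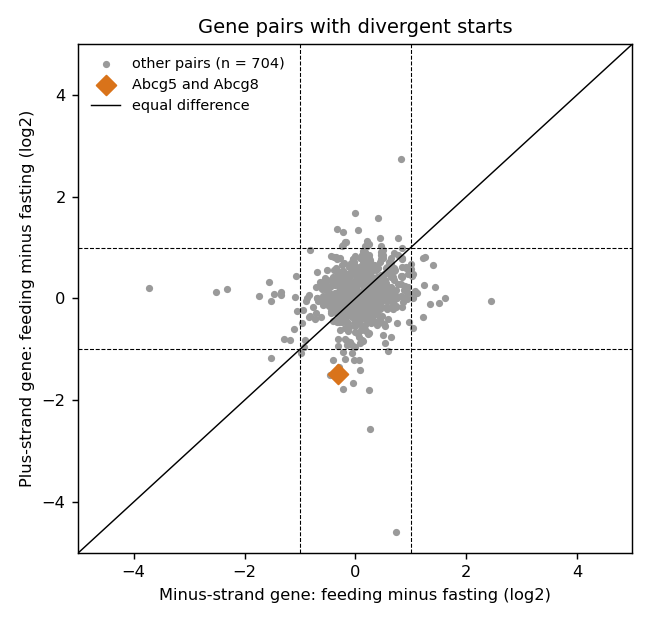
Difference between feeding and fasting (log2) of the minus-strand gene (x axis) and the plus-strand gene (y axis) for 705 pairs of genes with divergent starts at most 1000 bases apart. Abcg5 and Abcg8 (orange diamond, at -0.31 and -1.49) lie below the line of equal difference, with 1 gene past the dashed 2-fold line.

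Abcb4 (transcript NM_008830), the phosphatidylcholine translocator, had processed signals of 37581 upon fasting and 23130 upon feeding. The log2 difference of -0.67, or 1.59-fold lower, was 7.45 times the SD of replicate spots at that signal (0.09). The scanner error of this difference was larger, at 0.2. The difference of Abcb4 ranged from -0.67 to -0.47 over the alternatives and was not past 2-fold in any of them. Abcg5, Abcg8 and Abcb4 therefore had lower signals upon feeding under each scaling and background correction tried. In the reported setting the gap of 0.83 between Abcg8 and Abcb4 exceeded 2 SD of replicate spots (SD 0.20), while with the normexp correction their differences were -0.93 and -0.61.

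Of the genes of HDL formation, Abca1 (transcript NM_013454) had the higher signal upon feeding. Its processed signals were 10115 and 15241, a log2 difference of 0.61 or 1.52-fold, with an SD of 0.08 from replicate spots. It was the highest of the 10 differences, 9.88% of all genes were higher by more, and it ranged from 0.60 to 0.83 over the alternatives. Abcg1 (transcript NM_009593), which passes cholesterol from cells to HDL that is already formed, had signals of 1996 and 1616. Its log2 difference of -0.26 was 2.44 times the SD of replicate spots and became -0.07 with scaling by the median.

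Lcat (transcript NM_008490), which encodes the plasma enzyme that esterifies HDL cholesterol, had signals of 17186 upon fasting and 15065 upon feeding. The log2 difference was -0.17 (SD of replicate spots 0.08), within the scanner error of 0.2, and its direction depended on the scaling, as given above. Scarb1 (transcript NM_016741) was measured by 2 probes. The brighter probe had signals of 9373 and 8027, a log2 difference of -0.20, while the dimmer had 745.4 and 447.0, a difference of -0.60. The scanner error was 0.2 for each probe. With that error the differences of the 2 probes of Scarb1 may not be told apart, and with their mean the log2 difference was -0.40.

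The other genes act inside the cell. Mylip (transcript NM_153789) encodes IDOL, a ubiquitin ligase that limits lipoprotein uptake and is known as an LXR target. Its brighter probe had signals of 1532 upon fasting and 974.0 upon feeding, a log2 difference of -0.58, just inside 1.5-fold. The second probe of Mylip was dim, with 50.58 and 8.899, and gave a log2 difference of -2.33 with an SD of 0.47 from replicate spots. That value was -0.36 with the normexp correction, whereas the brighter probe gave -0.49. With the mean of both probes Mylip was past 2-fold (-1.46), so its call rests on the dim probe.

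Soat2 (transcript NM_146064), the acyltransferase that makes cholesterol esters for secretion in lipoproteins, had signals of 2540 and 2661. Its log2 difference of 0.11 was 1.26 times the SD of replicate spots, the smallest such ratio of the 12 probes, and was within the scanner error of 0.2. Npc1 (transcript NM_008720), which lets cholesterol out of the lysosome, had signals of 1729 and 1214, a log2 difference of -0.45 with an SD of 0.11. Across the alternatives Npc1 ranged from -0.45 to -0.27.

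**Figure D3:**
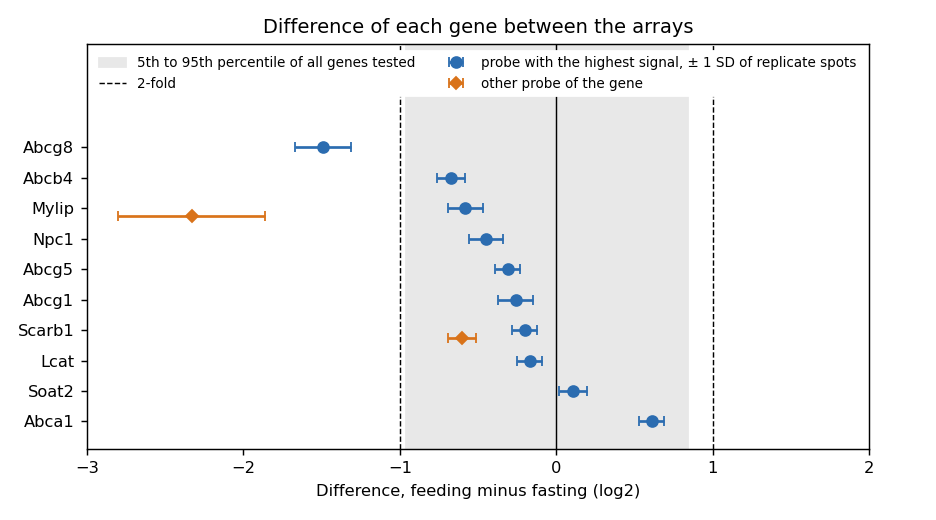
Difference between feeding and fasting (log2, x axis) for each of the 10 genes. Bars are 1 SD of a difference between replicate spots of similar signal and do not include variation between mice or the scanner error. Diamonds are the other probes of Mylip and Scarb1. Abcg8 (-1.49) lies past the dashed 2-fold line and outside the shaded 5th to 95th percentile of all genes (-0.961 to 0.842), and the other 9 genes by their brightest probe lie inside it.

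Ordered from the lowest to the highest difference, the genes were Abcg8, Abcb4, Mylip, Npc1, Abcg5, Abcg1, Scarb1, Lcat, Soat2 and Abca1. Of the 9 steps between neighbours in this order, 3 exceeded 2 SD of replicate spots: Abcg8 to Abcb4, Lcat to Soat2 and Soat2 to Abca1. The 6 steps from Abcb4 to Lcat did not, so neighbours within that stretch are not told apart by their differences. The scanner error, 0.2 for each of Lcat, Soat2 and Abca1, is not in these SDs. With it, the steps Lcat to Soat2 (0.28) and Soat2 to Abca1 (0.5) may not be told apart either. The known LXR targets among the genes (Abcg5, Abcg8, Abca1, Abcg1 and Mylip) did not share a direction. Of these 5 genes 4 were below 0 and 1 above, from -1.49 to 0.61, and each kept its sign under every scaling and background correction tried.

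**Figure D4:**
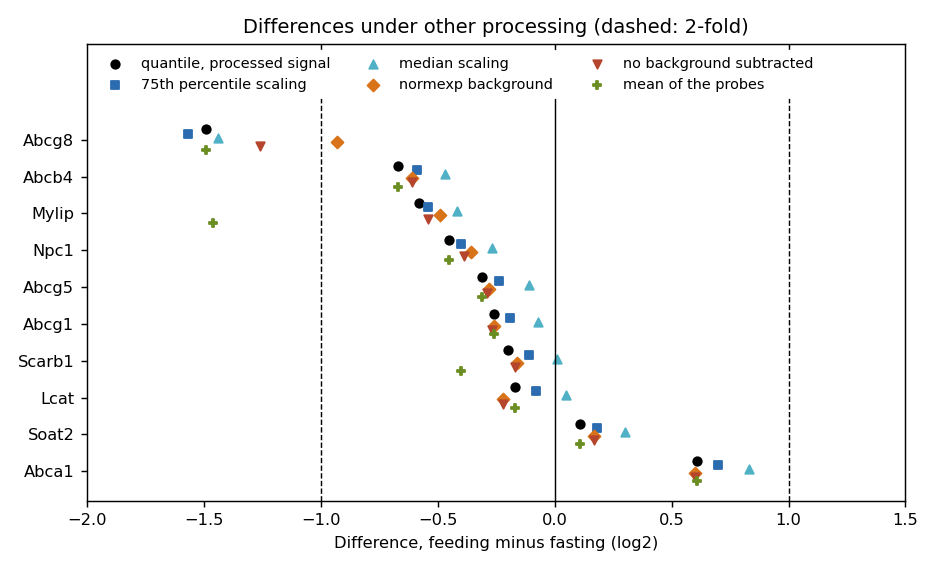
Difference between feeding and fasting (log2, x axis) of each gene under 6 ways of processing, with dashed lines at 2-fold. Abcg8 moves from -1.49 to -0.93 with the normexp correction, Mylip from -0.58 to -1.46 with the mean of its probes, and Scarb1 and Lcat reach 0.01 and 0.05 with scaling by the median.

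Other genes of sterol handling were taken as 5 lists. In the list of SREBP2 targets and LDL uptake (13 of 13 genes measured), 3 genes were 2-fold higher and 0 lower. Of all genes 3.29% were 2-fold higher. The list did not move as a whole: 8 genes were above 0 and 4 below, and at 1.5-fold 4 were higher and 3 lower. Its median log2 difference was 0.22, and 0.10 with the normexp correction. Among the genes 2-fold higher were Stard4, a sterol carrier (1.64), and Insig1, which retains SREBP in the endoplasmic reticulum (1.30). With the normexp correction Stard4 was at 1.23 and Insig1, at 0.77, was within 2-fold. Npc1l1, which encodes a sterol importer, was not well above background upon fasting.

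In the list of LXR, its partner and further targets (11 of 11 genes measured), Srebf1, which encodes the activator of fatty acid synthesis genes, was 8.90-fold higher upon feeding, with signals of 206 and 1677. No other gene of that list was past 2-fold. Nr1h3, which encodes LXRα, had a log2 difference of 0.33 (0.79 by its other probe) and Nr1h2, which encodes LXRβ, of -0.07 (0.11 with scaling by the median), while the LXR targets Lpcat3 (-0.84) and Scd1 (-0.83) were below 0. The median of the list was -0.07, and 0.11 with scaling by the median.

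In the list of HDL particle genes (10 of 10 measured) the median was -0.14, and 0.07 with scaling by the median. Apoa1 (-0.07) and Apoa2 (0.0), the genes of the main HDL proteins, were both at 0.13 with scaling by the median. Pdzk1, which encodes the adaptor that holds SR-BI at the membrane, had a log2 difference of 0.61 by its brighter probe and 0.71 by the other. Lipg, an endothelial lipase that acts on HDL, was past 2-fold lower (-1.60), on a dim probe with signals of 28.6 and 8.47 that gave -0.16 with the normexp correction.

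None of the 11 genes measured for lysosomal and intracellular sterol movement was past 2-fold, and their median was -0.15. Nceh1, a cholesterol ester hydrolase, had a log2 difference of -0.81, and Npc2, the lysosomal partner of NPC1, of -0.50. None of the 12 genes of canalicular secretion was past 2-fold either, with a median of -0.08 (0.13 with scaling by the median). Abcb11, the bile salt export pump, had a log2 difference of -0.16, as did both subunits of the phospholipid flippase, Atp8b1 and Tmem30a, and with scaling by the median these were 0.04, -0.04 and 0.04. The highest value of that list was that of Nr1h4, which encodes the bile acid receptor FXR (0.91, and 1.12 with scaling by the median).

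**Figure D5:**
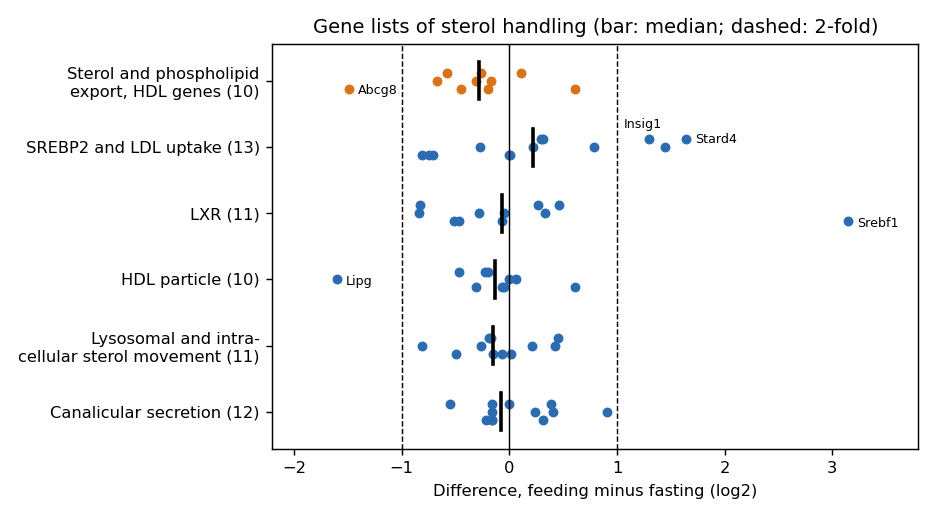
Difference between feeding and fasting (log2, x axis) of each measured gene in the 10 genes of export and HDL (orange) and in 5 lists of sterol handling (blue, number measured in parentheses). Bars mark medians, from -0.29 for the export and HDL genes to 0.22 for SREBP2 targets and LDL uptake, and names are given for Abcg8, Stard4, Insig1, Srebf1 and Lipg, which lie past the dashed 2-fold lines.

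Cell type markers were set beside these values, since Abca1 and Abcg1 are also known from macrophages. Hepatocyte markers such as Alb (signals of 159091 and 141790) were bright on both arrays, with a list median of -0.02 over 5 of 5 genes. For Kupffer cells, the macrophages of the liver, 6 of 7 markers were measured and 5 were below 0, with a median of -0.17 and a summed normalized signal of 48534 upon fasting and 38719 upon feeding. With scaling by the median, Cd5l and Vsig4 of these 5 were at 0.10. The largest fall among the Kupffer markers was that of Adgre1 (-0.89, processed signals of 13121 and 6943), which weighs on the sum, while Marco was above 0 (0.20). The difference of Abca1 was in the opposite direction to that sum and that of Abcg1 in the same direction, and the part of Kupffer cells in either was not tested. All 6 sinusoidal endothelial markers were below 0 (median -0.34, summed signal 37736 and 29059), with Pecam1 at -1.04, although Kdr was at 0.08 with scaling by the median. The medians were -0.24 for 5 stellate cell markers, 0.13 for 4 cholangiocyte markers, -0.19 for 4 lymphocyte markers and -0.05 for 3 red blood cell markers. Sox9, a cholangiocyte marker, was 4.31-fold higher upon feeding, while Epcam (0.08) and Krt19 (-0.31) had processed signals under 50 on both arrays. Of 4 enterocyte markers Fabp2 and Vil1 were measured, Fabp2 at -0.22, and Vil1 was not well above background upon fasting.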

How the data were processed

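RNA of each pool was run on a single-colour (Cy3) Agilent mouse array, read out by the authors with Feature Extraction 11.0.1.1. Per the file headers the deposited spot intensities comprise the processed (background-subtracted) signal with its error, the median signal and the local background, none of them scaled to the other array. There were 44397 spots per array, 1377 of them controls and 0 saturated, and 63.1% (fasting) and 72.3% (feeding) of the others were well above background. The deposited value table of the series equals the mean local background in 44397 of 44397 spots (relative tolerance 1e-05) and was not used.

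Control and outlier spots were left out. Log2 processed signals were averaged per probe and quantile normalized, as in the study's methods, and 27218 of 39402 probes (69.1%) were named through RefSeq transcripts of GRCm38.p6. A gene was represented by its brightest probe and tested where that probe was well above background on at least 1 array. For 1831 genes well above background on 1 array, the difference was bounded at the lowest signal well above background. Error came from 399 replicated probes, using the 50 nearest in signal. The arrays' number limits the precision.

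All 10 genes of the list are named, with the genes of each context list past 2-fold and otherwise up to 3 with the largest change; a few others (Npc1l1, Nr1h3, Nr1h2, Lpcat3, Scd1, Pdzk1, Apoa1, Apoa2, Abcb11, Atp8b1, Tmem30a and single cell type markers) were added after their values were seen, and some genes of the lists are not reported here. The genes and lists were chosen with earlier results of these data known. The lists were written from general knowledge. Motifs were searched in RefSeq promoters (GRCm38.p6). Alternatives were other scalings, normexp (offset 50, limma 3.58.1 on the median signal), no background subtraction, the mean of a gene's probes, outlier spots kept, other bounds and filters, and thresholds of 1.5-fold and 3-fold. Procedures were tested on simulated data.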

Additional observations from a re-analysis of the deposited data

How the results depend on the processing

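No paired analysis was possible because each group had 1 array, so no array could be left out either. Each of the 10 genes kept its direction under all 10 alternatives, except Scarb1 and Lcat with scaling by the median. The other bounds and filters could not move these genes, since all 10 were well above background on both arrays. The mean of a gene's probes could move only Scarb1 and Mylip, and keeping outlier spots left the values almost unchanged. Only the other scalings and background corrections could thus test the direction of most of these genes. With scaling by the median, the median log2 difference was -0.09 for the 10 genes, 0.32 for SREBP2 and LDL uptake, 0.11 for LXR, 0.07 for HDL particle, 0.01 for lysosomal and intracellular sterol movement and 0.13 for canalicular secretion, where 1 gene was then 2-fold higher. Over all genes that scaling moved the median from 0.0 to 0.09. With the normexp correction Abcg8 minus Abcg5 was -0.65, 0 of the 10 genes were 2-fold lower, 215 of all genes were higher and 312 lower, 1 SREBP2 and LDL uptake gene was higher, 0 HDL particle genes were lower, and the medians were 0.10 for SREBP2 and LDL uptake, -0.17 for LXR and -0.06 for lysosomal and intracellular sterol movement. With no background subtracted these were -0.97 for Abcg8 minus Abcg5, 329 higher and 422 lower among all genes, 0 HDL particle genes lower, and medians of 0.10, -0.18 and -0.06. With the mean of a gene's probes 2 of the 10 genes and 1 SREBP2 and LDL uptake gene were 2-fold lower. Among all genes 537 were higher and 756 lower in the reported setting, 876 higher with no bound, and 838 higher and 1185 lower with no filter. At 1.5-fold 1714 genes were higher and 1737 lower, with 1 of the 10 genes higher and 2 lower, 3 SREBP2 and LDL uptake, 2 LXR and 1 lysosomal and intracellular sterol movement genes lower, and 1 HDL particle and 1 canalicular secretion gene higher. At 3-fold 158 genes were higher and 311 lower, with 0 of the 10 genes lower and 1 SREBP2 and LDL uptake gene higher. The normexp offset of 50 by construction draws the differences of dim probes toward 0. Otherwise the cause of each shift was not tested. Signal over background limits Abcg8 and the second probe of Mylip most among the 12 probes.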
